A study of Mus musculus with 12 samples.

Results

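The 6 genes described here are Emg1, its opposite-strand neighbour Lpcat3, the liver X receptor (LXR) genes Nr1h3 and Nr1h2, and the cholesterol transporter genes Abca1 and Abcg1, out of 24552 gene symbols in the deposited tables. They were chosen by name, Emg1 for its exon overlap with Lpcat3 and the others for LXR lipid control. The choice was made with their counts and group differences in these same 12 libraries known, so their rows are a description with no test. Of the 6, 2 passed the filter on low counts, Emg1 and Lpcat3.

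The cells were macrophages derived from mouse bone marrow, cultured with M-CSF (10 ng/ml) over 6 days. All groups received vehicle (DMSO) or ISRIB, a small molecule that blocks the integrated stress response, at 50 nM as a 1 h pre-treatment. For M1-like cells 16 h of LPS (10 ng/ml) and IFN-γ (25 ng/ml) followed with vehicle or ISRIB still present, and what the M0 dishes were given in those hours is not stated. Polyadenylated RNA was sequenced from 3 libraries each of M0 and M1 cells under vehicle and of M0 and M1 cells under ISRIB. The labels call the replicates biological but name no animal, strain, sex or age, so p-values measure the spread between these samples, and in bulk RNA fewer cells of a type cannot be told apart from less RNA per cell.

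LXRs are nuclear receptors that sense oxidised cholesterol and bind DNA together with a retinoid X receptor. In macrophages they are known for raising ABCA1 and ABCG1, which export cholesterol to lipoprotein particles, and LPCAT3, which inserts polyunsaturated fatty acids into membrane phospholipids. Emg1 encodes a methyltransferase that modifies small-subunit ribosomal RNA and takes part in ribosome assembly, a role unrelated to LXR.

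In GENCODE M21 (GRCm38, the same build as mm10), Lpcat3 lies on the plus strand at chr6:124663027-124704418 and Emg1 on the minus strand at chr6:124704085-124712178. The genes converge, so the shared stretch is at the 3′ end of both. Exons of any transcript overlapped over 334 bases, chr6:124704085-124704418, and 0 of these bases were coding in either gene. Most of that overlap came from an Emg1 transcript annotated as a retained intron. Between protein-coding transcripts the overlap was 38 bases, chr6:124704381-124704418, in 3′ untranslated exon sequence. RefSeq spans of the same assembly overlapped by 347 bases. Nr1h3 on chromosome 2, Nr1h2 on chromosome 7, Abca1 on chromosome 4 and Abcg1 on chromosome 17 had no exon overlap with a gene on the opposite strand.

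The promoters show that the pair shares its ends and not its starts. A letter pattern for an LXR-type element, shaped on the Abca1 window, had no match near either gene of the pair. RefSeq promoters (GRCm38.p6) were found for 5 of the 6 genes, all except Abcg1. The 250 bases before the start are printed 5′ to 3′ on the gene's strand, for Lpcat3 from chr6:124662854-124663103 (plus), for Emg1 from chr6:124712179-124712428 (minus) and for Abca1 from chr4:53159896-53160145 (minus). Capitals mark a match on either strand to GGTNA, then 5 free letters, then GGTCA, a direct repeat of the core of a nuclear receptor half-site with 1 letter of the first copy free, a form chosen after the Abca1 window was read.
Lpcat3: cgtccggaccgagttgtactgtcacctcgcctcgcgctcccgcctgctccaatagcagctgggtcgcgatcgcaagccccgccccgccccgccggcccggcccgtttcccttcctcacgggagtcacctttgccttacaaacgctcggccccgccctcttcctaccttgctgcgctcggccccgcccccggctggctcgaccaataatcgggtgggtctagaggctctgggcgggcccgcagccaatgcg
Emg1: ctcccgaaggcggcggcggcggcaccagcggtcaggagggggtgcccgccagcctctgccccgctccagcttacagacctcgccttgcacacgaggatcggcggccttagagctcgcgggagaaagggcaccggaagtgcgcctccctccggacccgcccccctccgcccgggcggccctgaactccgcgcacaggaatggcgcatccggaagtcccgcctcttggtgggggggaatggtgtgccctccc
Abca1: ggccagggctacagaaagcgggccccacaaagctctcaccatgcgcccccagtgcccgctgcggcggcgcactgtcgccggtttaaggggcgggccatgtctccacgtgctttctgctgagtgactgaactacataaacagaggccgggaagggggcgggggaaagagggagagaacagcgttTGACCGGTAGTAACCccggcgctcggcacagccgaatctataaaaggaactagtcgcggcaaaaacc
The Abca1 match lay on the reverse strand, 53 to 67 bases before the start, and no match was found in the windows of Lpcat3, Emg1, Nr1h3 or Nr1h2. Of all 32851 promoter windows of this length 58 held a match, or 0.177%. Among 24 windows of 18 LXR target genes 3 did, those of Abca1, Srebf1 and Fasn. The Abca1 match was fixed by the choice of the pattern, so neither it nor a count that includes it is a test. A match is a description of letters, and no match says only that these letters are absent from the window.

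Total counts ranged from 439976 to 514037 per library, which is shallow, so that 1 count was worth 1.79 to 2.57 CPM (the count scaled to library size with the TMM method). The 24.1% of annotated symbols with an exon overlap on the opposite strand took up 92.3% of all counts (91.2% to 93.1% by library). The libraries were strand-specific, and the strand setting used for counting was not given in the sources used here, so values are counts assigned to a symbol. Whether reads were counted on the strand opposite to their gene was not tested. If they were, the counts of a symbol would be reads of its opposite-strand neighbour or antisense reads, and a low count or a 0 would not give the level of the named gene, with or without an annotated overlap. Hdac3, Prmt1, Fdps and Nob1, which cells of most kinds use, were at 0 in all libraries and were named after their values were seen. Throughout, a gene that rose or fell is a symbol whose assigned counts did. Of 12 macrophage markers 9 passed the filter on low counts, led by Lyz2 with a mean of 153 counts. Summed markers of neutrophils, lymphocytes, mast and erythroid cells and stroma came to at most 13 counts in a library. Elane, Mpo, Cd3e, Kit and Col1a1, defining markers of those cells, were at 0 in all 12 libraries. The dendritic cell list was at 0 for Flt3, Zbtb46 and Cd209a. Its summed level was 10.7 to 35.6 CPM in M0 and 832 to 1065 CPM in M1, carried by Xcr1, which had 325 to 434 counts in every M1 library and 6 to 19 in every M0 library. The part of dendritic cells in the results below was not tested.

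Counts assigned to Emg1 were lower in M1-like than in M0 macrophages, and less so where ISRIB was present. Vehicle M0 libraries held 109, 91 and 108 Emg1 counts in replicates 1 to 3, and vehicle M1 libraries 27, 15 and 21. ISRIB M0 libraries held 126, 113 and 136, and ISRIB M1 libraries 44, 62 and 47. Every M0 library was above every M1 library, and every ISRIB M1 library was above every vehicle M1 library.

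On the CPM scale the Emg1 level was 241 ± 30.7 (SD, n = 3) in ISRIB M0, 195 ± 28.7 in vehicle M0, 120 ± 16.8 in ISRIB M1 and 52.2 ± 14.6 in vehicle M1. In that order the ISRIB M0 and vehicle M0 ranges overlapped (206 to 262 against 163 to 219 CPM), and no other neighbours did. The log2 difference between vehicle M1 and vehicle M0 was -1.89 ± 0.28 (SE of edgeR's fit over all 12 libraries), a 3.71-fold lower level in M1. With ISRIB the difference was -1.004 ± 0.251, a 2.01-fold lower level. Of all 2356 tested genes, M1 lay below M0 with no overlap for 25.0% in vehicle and 26.4% in ISRIB.

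Between ISRIB M1 and vehicle M1 the Emg1 log2 difference was 1.19 ± 0.29 (SE), or 2.29-fold. In M0 it was 0.31 ± 0.24. Of all tested genes 5.39% had every ISRIB M1 library above every vehicle M1 library and 6.20% had every one below. In M0 these shares were 5.56% and 5.73%. The difference between the ISRIB effects in M1 and in M0 was 0.89 ± 0.37 on the log2 scale. After Benjamini-Hochberg adjustment over all 2356 genes, the quasi-likelihood test of edgeR called 0, for ISRIB in M1, for ISRIB in M0 and for the interaction. Unadjusted p-values under 0.05 numbered 134 (5.69%), 143 (6.07%) and 167 (7.09%) for the same contrasts. The DESeq2 Wald test called 0, 3 and 0 genes and limma on the deposited log2 values 0, 0 and 0.

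**Figure D1:**
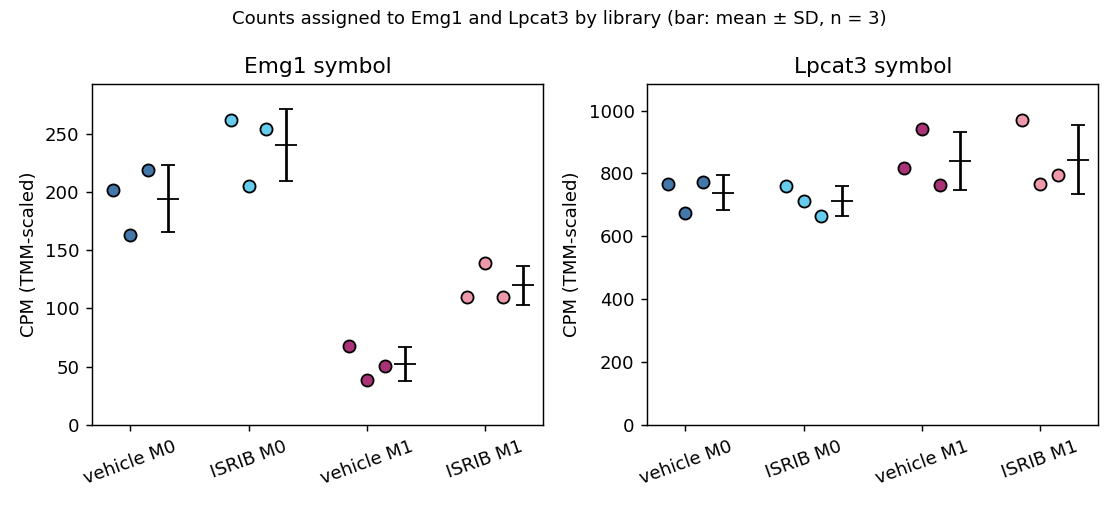
Level of Emg1 (left) and Lpcat3 (right) in TMM-scaled CPM for each of the 12 libraries, with bars for the mean ± SD of 3 libraries. Emg1 runs from 38.6 to 67.6 in vehicle M1 and from 110 to 139 in ISRIB M1, below all M0 libraries, while Lpcat3 stays between 665 and 970 in all groups.

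Lpcat3 had more counts than Emg1 in each library and a narrow range. Its counts under vehicle were 414, 377 and 382 for M0 and 326, 366 and 317 for M1. Under ISRIB they were 365, 392 and 355 for M0 and 388, 342 and 339 for M1. The M0 levels were 739 ± 55.5 CPM (SD, n = 3) under vehicle and 712 ± 47.1 under ISRIB, and the M1 levels 840 ± 91.6 and 844 ± 110. Vehicle M1 and vehicle M0 overlapped, and the lowest ISRIB M1 library, at 768 CPM, was just above the highest ISRIB M0 library, at 759 CPM. M1 lay above M0 with no overlap for 28.8% of tested genes in ISRIB and 27.7% in vehicle. The log2 difference of M1 from M0 was 0.18 ± 0.14 (SE) in vehicle and 0.24 ± 0.14 in ISRIB, and the ISRIB differences were 0.01 ± 0.14 in M1 and -0.05 ± 0.14 in M0. Per kilobase of annotated exon, over all 12 libraries, the Lpcat3 level was 240 ± 28.2 CPM per kb (SD, n = 12) and that of Emg1 32.8 ± 16.8. These lengths joined the exons of all transcripts, 3268 bases for Lpcat3 and 4632 for Emg1. Exons of protein-coding transcripts alone came to 2281 and 1034 bases, and the gap per kilobase would be smaller with those lengths.

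Taking Emg1 as a share of the counts of both genes in the same library leaves library scaling out. Emg1 held 20.8%, 19.4% and 22.0% of the pair in vehicle M0 and 25.7%, 22.4% and 27.7% in ISRIB M0. For vehicle M1 the shares were 7.65%, 3.94% and 6.21%, and for ISRIB M1 10.2%, 15.4% and 12.2%. None of the 4 groups overlapped with another on this measure. The gap between the M0 groups was narrow, 22.0% against 22.4%, and the counting intervals of single M0 libraries overlapped. How often the shares of other gene pairs separate in this way was not computed. The lowest share, in vehicle M1 replicate 2, had a 95% Wilson interval of 2.40% to 6.39%, and the highest, in ISRIB M0 replicate 3, one of 23.9% to 31.8%. Such intervals cover counting error only, not the spread between replicates. They treat reads as independent, and reads carried no molecular identifiers to set copies apart. The mean log2 ratio of Emg1 to Lpcat3 differed by -2.11 ± 0.31 (SE from the replicate SD) between vehicle M1 and vehicle M0. It was -1.25 ± 0.23 for the ISRIB groups. ISRIB against vehicle gave 1.22 ± 0.36 in M1 and 0.36 ± 0.14 in M0.

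**Figure D2:**
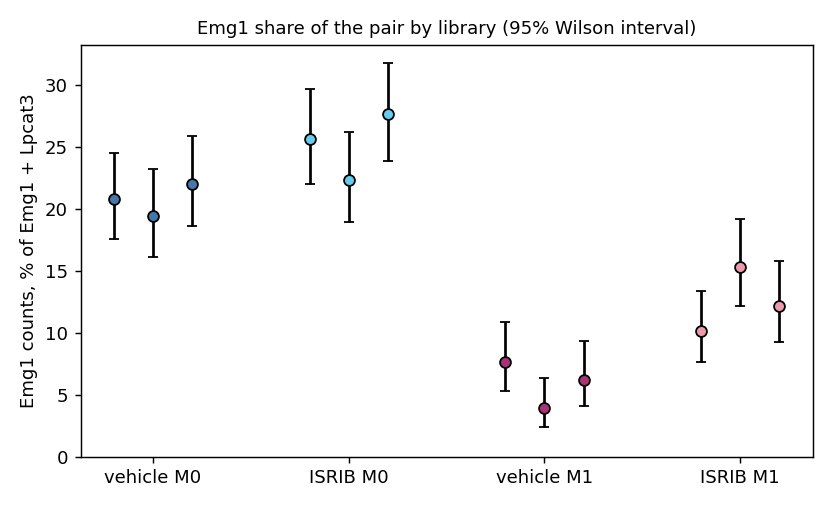
Emg1 counts as a percent of Emg1 plus Lpcat3 counts in each library, with 95% Wilson intervals. Vehicle M1 libraries lie at 3.94% to 7.65%, ISRIB M1 at 10.2% to 15.4%, vehicle M0 at 19.4% to 22.0% and ISRIB M0 at 22.4% to 27.7%.

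The genes whose pattern was most like that of Emg1 were Mir130c, Gmpr2, 1700086O06Rik, Oxsm and A530088E08Rik. They had the highest Pearson r with Emg1 in log2 CPM over 12 samples among the 835 other genes averaging 50 counts or more, from 0.937 for Mir130c to 0.917 for A530088E08Rik. These 12 points share their libraries and fall into an M0 and an M1 cluster, and r within a cluster was not computed. Mir130c, listed as a microRNA symbol, was at 183 ± 34.8 CPM (SD, n = 3) with M0 and 31.6 ± 9.71 with M1 under vehicle, and at 218 ± 20.1 and 54.3 ± 20.8 under ISRIB. Gmpr2, which encodes a guanosine monophosphate reductase, went from 325 ± 79.1 to 80.3 ± 14.0 in vehicle and from 283 ± 33.2 to 131 ± 22.4 in ISRIB. In 4 of the 5, namely Mir130c (Kdelc2), Gmpr2 (Nedd8 and Tinf2), 1700086O06Rik (Dele1) and Oxsm (Ngly1), exons overlap the gene in parentheses on the opposite strand. Symbols with such an overlap held 92.3% of all counts. The share of the 835 genes with one was not computed, so the 4 are not read as a trait shared with Emg1. For Lpcat3 itself r with Emg1 was -0.61, and 576 of the 835 genes had a higher one.

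The receptor genes were close to the counting limit. Nr1h3, which encodes LXRα, had 1, 3 and 2 counts for M0 and 0, 2 and 0 for M1 under vehicle, and 2, 0 and 1 for M0 and 0, 2 and 0 for M1 under ISRIB. No library was above 3 counts, taken as the limit that a count of 0 allows, and no group stood apart. Nr1h2, which encodes LXRβ, had 1, 0 and 0 counts for M0 and 2, 2 and 0 for M1 under vehicle, and 0, 0 and 12 for M0 and 0, 2 and 0 for M1 under ISRIB. Its 12 counts in ISRIB M0 replicate 3 were 12 of 19 in all.

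The efflux genes had somewhat more counts. Abca1 had 18, 4 and 6 counts in vehicle M0 and 2, 0 and 4 in vehicle M1, which overlapped at 4. It had 6, 4 and 12 in ISRIB M0 and 8, 0 and 6 in ISRIB M1. Abcg1 had 2, 4 and 0 counts in vehicle M0 and 6, 3 and 4 in vehicle M1, which also overlapped, then 6, 3 and 8 in ISRIB M0 and 0, 2 and 0 in ISRIB M1. The Abcg1 counts in ISRIB M1 were below all those in ISRIB M0 and in vehicle M1, on totals of 2, 17 and 13 counts. These totals are close to the counting limit. Among tested genes, which leave out Abcg1, 26.4% had ISRIB M1 below ISRIB M0 with no overlap in CPM. For ISRIB M1 below vehicle M1 that share was 6.20%.

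These 4 genes did not pass the filter on low counts, so the fit used for the other genes does not cover them, and as members they were not tested. Counts were also summed over 3 libraries, without scaling and with exact 95% Poisson intervals. Leaving out the scaling lowers M1 totals against M0, since 1 count was worth 2.245 to 2.57 CPM in M1 and 1.79 to 2.08 CPM in M0. Abca1 had 28 (18.6 to 40.5) in vehicle M0, 18 of them from replicate 1, and 6 (2.20 to 13.1) in vehicle M1. Under ISRIB its intervals overlapped, with 22 (13.8 to 33.3) in M0 and 14 (7.65 to 23.5) in M1. Abcg1 went the other way in vehicle, with 6 (2.20 to 13.1) in M0 and 13 (6.92 to 22.2) in M1. Under ISRIB Abcg1 had 17 (9.90 to 27.2) in M0 and 2 (0.242 to 7.2) in M1. Even counts made up 25 of the 31 values above 0 in these 4 genes, among them 10 of 10 for Abca1. Over all genes without an opposite-strand overlap 69.1% of values from 1 to 20 were even, against 52.1% of values above 20. For Emg1 5 of 12 values were even. The Poisson intervals assume independent counts and leave out the spread between replicates, so they are no test between groups. The part of this excess of even values was not tested.

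**Figure D3:**
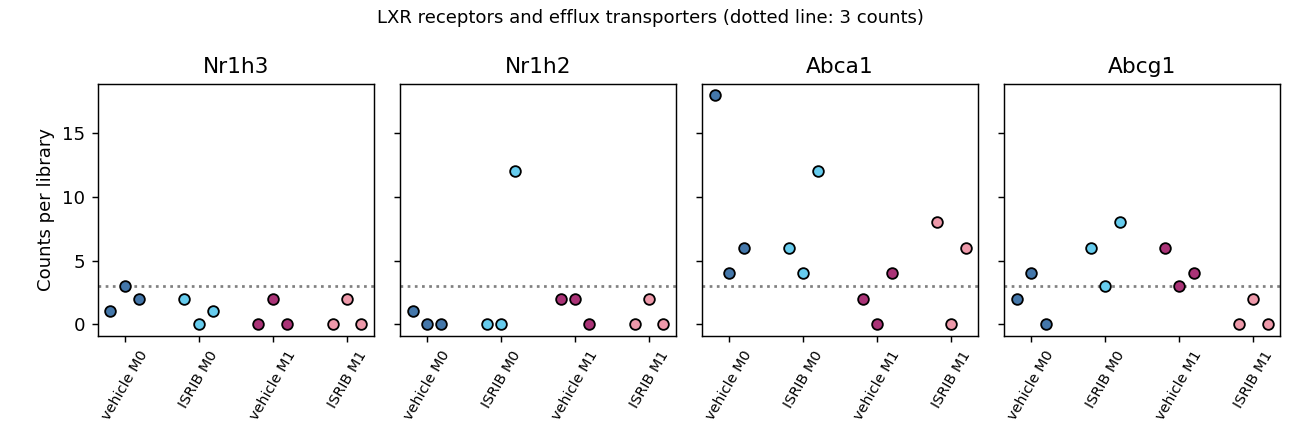
Counts per library of Nr1h3, Nr1h2, Abca1 and Abcg1 in the 4 groups of 3 libraries, with a dotted line at 3 counts. Nr1h3 is at or under 3 counts in all 12 libraries, and the highest value is 18 counts for Abca1 in vehicle M0 replicate 1.

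Lists of related genes place the 6 beside their pathways. Outside the members the 6 lists held 166 genes, of which 35 had enough counts to be tested. Of the 55 list genes with an opposite-strand exon overlap 20 were tested, and of the 111 without one 15 were. The 55 held 97.4% of the counts of all list genes. Most counted among them were Fdft1, Krr1 and Pltp, at means of 14240, 5374 and 1855 counts. The median of the mean counts was 2.67 with an overlap and 0.667 without. A gene high in only 1 group could pass the filter through that group, so counts among tested genes are read beside shares over all 2356 tested genes. Of those, 44.8% were called between M1 and M0, in vehicle and likewise in ISRIB. By direction 24.3% were called higher and 20.5% lower in vehicle, and 23.9% and 20.9% in ISRIB.

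Among 22 other LXR targets 4 were tested, and 2 of them fell and 1 rose in vehicle M1 against M0. Pltp, which encodes phospholipid transfer protein, had 3214, 3006 and 2831 counts in vehicle M0 and 763, 713 and 731 in vehicle M1. Its level in ISRIB M0 was 5670 ± 341 CPM (SD, n = 3) and in ISRIB M1 1690 ± 70.1, beside 5690 ± 291 and 1834 ± 76.8 in vehicle. The Pltp log2 difference was -1.63 ± 0.10 (SE) in vehicle and -1.75 ± 0.10 in ISRIB, and edgeR gave adjusted p-values of 3.93e-13 and 1.2e-13. Pltp exons overlap Ctsa, the lysosomal cathepsin A gene, over 495 bases on the opposite strand.

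Apoe, which encodes the lipoprotein apolipoprotein E and has no opposite-strand exon overlap, fell as well. It had 313, 287 and 206 counts in vehicle M0 and 72, 85 and 118 in vehicle M1, with no overlap between groups. In ISRIB it had 222, 333 and 292 counts in M0 and 144, 110 and 146 in M1. The Apoe log2 difference was -1.14 ± 0.20 (SE) in vehicle and -0.77 ± 0.20 in ISRIB, with edgeR adjusted p-values of 4.08e-05 and 0.0023. Tgm2, a transglutaminase gene that overlaps Gm20412 and Rprd1b, rose by 1.40 ± 0.57 in vehicle at an edgeR adjusted p of 0.0494, just past the threshold. That call was made under 7 of 17 other settings, with adjusted p-values by the respective tool of 0.0301 to 0.228, and was lost with limma, with no filter, with a replicate block, and without vehicle M0 replicate 1, 2 or 3, vehicle M1 replicate 1 or 2, or ISRIB M1 replicate 2 or 3. Lpl, the lipoprotein lipase gene, did not pass, with -0.89 ± 0.60 in vehicle. The median log2 difference of the 4 was -1.02 in vehicle and -0.83 in ISRIB, against 0.01 and -0.01 over all tested genes. With no filter, over 13 genes with any count, the medians were -0.98 in vehicle and 1.14 in ISRIB, so the sign in ISRIB turned. Of the other 18 targets Srebf1 had the highest mean, 5.17 counts, and Scd1, Scd2, Fasn and Apoc1 were among those at 0 in all libraries.

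Of 20 LXR partners and cofactors 4 were tested, among them the corepressor gene Ncor1 and the coactivator genes Ncoa3 and Ep300. Only Ncoa3, which overlaps Sulf2, was called in vehicle, with 14, 9 and 26 counts in M0 and 0 in each M1 library, at least 4.22-fold lower in M1 against a floor of 3 counts per library. In ISRIB Ncoa3 had 9, 18 and 14 counts in M0 and 0, 2 and 8 in M1 and was not called, with an edgeR adjusted p of 0.152. It was called there by limma on the deposited log2 values and without ISRIB M1 replicate 3, over a range of 0.037 to 0.363 across settings. Ncor1 had a log2 difference of -0.73 ± 0.38 in vehicle and Ep300 one of 0.44 ± 0.41, neither past the threshold.

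Sterol synthesis genes, controlled by SREBP2 when cell sterol is low, had 3 tested members of 30. Counts assigned to Fdft1 and Sqle, the symbols of successive enzymes at squalene, fell in vehicle and in ISRIB, and Mvd did not pass in either. Sqle, with no opposite-strand exon overlap, had 222, 212 and 177 counts in vehicle M0 and 61, 88 and 66 in vehicle M1, then 240, 239 and 172 in ISRIB M0 and 60, 47 and 54 in ISRIB M1. The Sqle log2 difference was -1.10 ± 0.22 (SE) in vehicle and -1.72 ± 0.22 in ISRIB, with edgeR adjusted p-values of 1.72e-04 and 5.07e-07. Counts assigned to Fdft1 went from 24534, 26220 and 25905 in vehicle M0 to 3582, 3010 and 3170 in vehicle M1, a log2 difference of -2.57 ± 0.10. Fdft1 overlaps the cathepsin B gene Ctsb over 774 bases, and Ctsb itself had a mean of 110 counts and a log2 difference of -0.34 ± 0.26 that did not pass. Whether the Fdft1 counts are reads of Fdft1 or of Ctsb cannot be told apart here.

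Called genes of cholesterol uptake, storage and transport were higher in M1, at 30% of those tested in vehicle and 50% in ISRIB. Over all tested genes 44.8% were called in vehicle and likewise in ISRIB. Of 26 genes 10 were tested and 3 rose and 0 fell in vehicle M1, where 24.3% of all tested genes were called higher and 20.5% lower. In ISRIB these shares were 23.9% and 20.9%. Npc1, the lysosomal cholesterol exporter gene, had 92, 107 and 62 counts in vehicle M0 and 144, 133 and 170 in vehicle M1, a log2 difference of 1.18 ± 0.22 (SE). Npc2, its luminal partner, had 16, 44 and 9 counts and then 60, 39 and 78, which overlap before scaling but not in CPM, with 1.77 ± 0.38. Lrp1, a lipoprotein receptor gene, rose by 1.43 ± 0.33. EdgeR adjusted p-values of the 3 were 6.49e-05, 4.19e-04 and 8.9e-04. In ISRIB 5 rose, these 3 at log2 differences of 1.18, 1.18 and 1.19 and also Msr1 and Tspo, named after their values were seen. Msr1, a scavenger receptor gene, had 1, 5 and 0 counts in ISRIB M0 and 20, 16 and 18 in ISRIB M1, and Tspo had 0 in each ISRIB M0 library and 6, 15 and 5 in ISRIB M1, at least 3.49-fold higher. Npc1 overlaps Rmc1 and Gm15956 and Tspo overlaps Mcat on the opposite strand, and Npc2, Lrp1 and Msr1 have no such overlap.

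Of 25 other genes listed for phospholipid remodelling, the process in which Lpcat3 acts, 3 were tested and 1 was called. Acsl1, a fatty acyl-CoA synthetase gene, had 0 counts in all 3 M0 libraries of the vehicle arm against 10, 6 and 12 with M1, at least 4.08-fold higher, with an edgeR adjusted p of 0.00174. In ISRIB it had 0, 4 and 0 counts and then 4, 32 and 22, and edgeR gave an adjusted p of 0.00464. Acsl1 overlaps Gm45244 on the opposite strand. Lpcat2 and Acsl5 did not pass in either comparison.

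Small ribosomal subunit assembly genes, which act in the same process as Emg1, were called in both directions. Of 43 genes 11 were tested, of which 3 rose and 1 fell in vehicle, and 2 rose and 1 fell in ISRIB. The called shares were 36.4% in vehicle and 27.3% in ISRIB, beside 44.8% of all tested genes in each. In vehicle 24.3% of all tested genes were called higher and 20.5% lower, so calls in both directions are not particular to this list. Bysl, an assembly factor gene, rose from 282, 230 and 173 counts in vehicle M0 to 976, 962 and 1204 in vehicle M1, a log2 difference of 2.60 ± 0.15 (SE). Trmt112, a methyltransferase activator gene, rose by 1.31 ± 0.12. Tsr1 rose by 0.75 ± 0.13 in vehicle and had 0.31 ± 0.13 in ISRIB, with edgeR adjusted p-values of 2.75e-05 and 0.0526. In ISRIB Tsr1 was called under 5 of 18 other settings. Krr1 fell by 0.88 ± 0.09 on the log2 scale in vehicle, from 8076, 8056 and 6925 counts to 3306, 3175 and 2962. All 4 have an exon overlap on the opposite strand, Bysl with Ccnd3, Trmt112 with Esrra and Prdx5, Tsr1 with Srr and Krr1 with Glipr1. The list median was -0.12 in vehicle and -0.20 in ISRIB, and its sign was not stable. With no filter it was 0.28 and 0 over 35 genes, and with a minimum mean of 50 counts 0.33 and 0.02 over 6 genes. Without vehicle M0 replicate 3 the vehicle median was 0.00239.

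**Figure D4:**
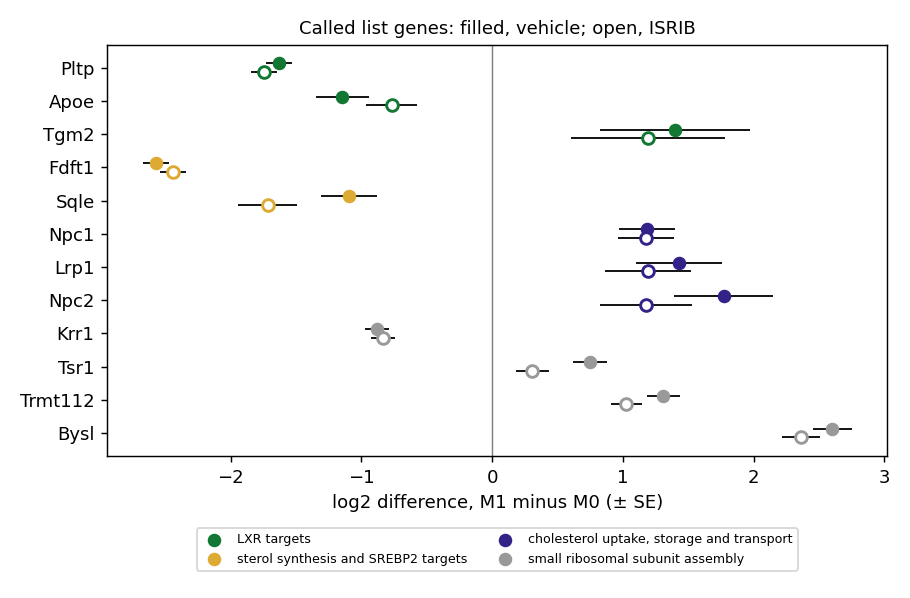
The log2 difference of M1 from M0 (± SE) for the list genes called in vehicle, leaving out Ncoa3 and Acsl1, which have a group at 0. Filled points are vehicle and open points ISRIB. Pltp, Apoe, Fdft1, Sqle and Krr1 lie below 0 and Tgm2, Npc1, Npc2, Lrp1, Tsr1, Trmt112 and Bysl above 0 in both.

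Emg1 is 1 of many symbols whose exons run opposite to a lipid gene. Of 21 other such neighbours of the lipid lists, 11 were tested and 5 were called in vehicle and 5 in ISRIB, 4 higher and 1 lower each time. That was 45.5% of those tested in vehicle and in ISRIB, beside 44.8% of all tested genes. The share is therefore not read as a trait of these neighbours. The one lower was Ctsa, opposite Pltp and Neurl2, from 13030, 7932 and 8941 counts in vehicle M0 to 1893, 1926 and 2363 in vehicle M1, a log2 difference of -1.88 ± 0.18 (SE). Ctsa and Pltp thus both fell. The symbol 1700071M16Rik, opposite Pla2g7, the gene of a phospholipase that degrades platelet-activating factor, rose from 388, 263 and 297 counts to 1851, 1595 and 2579, with 3.06 ± 0.20. Pla2g7 itself had a mean of 2.75 counts. The symbol 1700110K17Rik, opposite Gramd1b, rose by 1.25 ± 0.24. Egfl8 and Zdhhc6, the other two called higher, were named after their values were seen. Zdhhc6, opposite Acsl5, had 0 counts in each M0 library, 33, 43 and 30 with M1 under vehicle and 66, 48 and 37 with M1 under ISRIB. It was at least 15.6-fold higher in vehicle and at least 20.8-fold higher in ISRIB. Ttc19, Ctsb and Nrd1, also among the 6 with the most counts, did not pass in either comparison.

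ISRIB called none of the list genes or their opposite-strand neighbours in M1 or in M0, as 0 of all 2356 genes passed. Apoe in M1 had a log2 difference of 0.47 with an edgeR adjusted p of 0.806. Pltp had -0.12, and edgeR gave an adjusted p of 0.956. The lowest edgeR adjusted p of the LXR target list was 0.806 in M1 and 0.998 in M0.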

How the data were processed

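Polyadenylated RNA was sequenced in 12 libraries with a strand-specific TruSeq kit on a NovaSeq instrument, per the labels' protocols. The submitters' processing notes name FastQC, HTSeq and DESeq2 and the build mm10, with no roles, versions or strand setting. The authors deposited whole-number counts per symbol and log2 values, and from the values each deposited log2 value is the log2 of the count over a library size factor, plus 1. Groups and replicate numbers came from the sample titles and columns from the sample descriptions.

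The fits used edgeR 4.0.16 under R 4.3.3. The function filterByExpr removed low genes (minimum count 10, minimum total 15) and left 2356 genes with 97.6% of counts, scaled by TMM. One mean per group was fitted over 12 libraries without a replicate block, and 5 contrasts were tested by quasi-likelihood with Benjamini-Hochberg adjustment over all tested genes (threshold 0.05, two-sided). The fit was also run on counts simulated from its own means and dispersions, which does not test how well it describes these data. SEs are those implied by the test statistic. Log2 CPM for likeness used a prior count of 2. Overlaps came from GENCODE M21 exons. A floor of 3 counts stands for a count of 0. The members and gene lists were chosen with earlier results of these data known. Named genes were the members, up to 4 called genes per list with the largest change in vehicle, the 6 opposite-strand neighbours with most counts, and 5 genes most like Emg1. Alternatives were DESeq2 1.42.0 size factors and Wald test, limma 3.58.1 on the deposited log2 values, no filter, a minimum mean of 50 counts, a replicate block and leaving out each library.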

Additional observations from a re-analysis of the deposited data

How the results depend on the processing

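The Emg1 log2 differences kept their sign and moved by less than the within-group SD of 0.254 under all 6 alternative analyses and without each library in turn, where M1 against M0 ranged from -2.10 to -1.71 in vehicle and from -1.11 to -0.95 in ISRIB, and ISRIB against vehicle from 1.02 to 1.42 in M1 and from 0.21 to 0.42 in M0. DESeq2 size factors changed no count by over 1.5 times. With a minimum mean of 50 counts, which tests only 836 genes, 530 genes were called between M1 and M0 in vehicle and 523 in ISRIB, both fewer because fewer genes were tested. That limit left 0 called genes among LXR partners in vehicle, 2 among cholesterol handling genes in ISRIB, and 0 among phospholipid genes in vehicle and 0 in ISRIB. Limma on the deposited log2 values called 1 LXR partner in ISRIB. Without a filter 2 phospholipid genes were called in vehicle, and 10 genes in all for ISRIB in M0 and 9 for the interaction. The DESeq2 Wald test called 3 genes for ISRIB in M0. None of the genes called in an ISRIB contrast or the interaction under any setting was a list gene or an opposite-strand neighbour, and the members are described without a test. Leaving out single libraries gave 0 to 1 genes for ISRIB in M1 (1 without ISRIB M1 replicate 2), 0 to 6 in M0 (6 without ISRIB M0 replicate 1 and 2 without ISRIB M0 replicate 2) and 0 to 4 for the interaction (4 and 1 without the same libraries), and 0 to 1 LXR partners in ISRIB (1 without ISRIB M1 replicate 3). The cause of these changes was not tested. Same-numbered libraries had correlations of deviations from their group means of -0.06 to 0.113, over 0.1 in 1 of 18 pairs, so the numbers were not taken to pair the samples. These correlations cannot decide the matter, since counting noise at this depth could hide a pairing. The library names run consecutively across the groups within each replicate number. A replicate block gave 3 called genes for the interaction, and no other count given here moved by over 1.5 times. Nr1h3 never rose above the floor of 3 counts, and how far depth or the strand setting sets such low values was not tested.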
